A study of Mus musculus with 6 samples.

Results

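Chemokines are small secreted proteins that draw leukocytes along concentration gradients by binding receptors coupled to G proteins. The 10 genes described here encode inflammatory and epithelial chemokines that can be made in oral mucosa: Cxcl9, Cxcl10, Ccl5 and Ccl20, which attract lymphocytes, Ccl2, Ccl7, Ccl3, Ccl4 and Cxcl1, which attract mainly monocytes, macrophages or neutrophils, and Cxcl14, which stands apart as a chemokine made by resting epithelium. They were chosen by name, with earlier results of these data known. All 10 were found among the 18193 genes that had a probe set annotated to them alone, with 14 probe sets in all. The division is by main receptor and target cell and is not absolute, since Ccl5, Ccl3 and Ccl4 can each attract T cells as well as monocytes.

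Total RNA from whole tongues of adult C57BL/6J mice, an inbred laboratory strain, was measured on Affymetrix mouse arrays, with 1 mouse on each. In 3 mice 4-nitroquinoline 1-oxide (4NQO), a carcinogen that damages DNA and generates oxidative stress, was added to the drinking fluid at 100 μg/ml for 8 weeks, and 3 mice received no treatment. The comparison asks which genes 4NQO exposure changes in the tongue. Each probe set has a log2 signal, so that a difference of 1 is a doubling of signal. A tongue is a mixture of squamous epithelium, skeletal muscle, connective tissue, vessels, glands and leukocytes, and in such a mixture fewer cells of a type and less RNA per cell cannot be told apart.

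Groups were compared by limma's moderated test across all 18193 genes, with p-values adjusted by the Benjamini-Hochberg method. The median over all probe sets lay between 4.45 and 4.55 on the 4NQO arrays and between 4.57 and 4.60 on the control arrays. A signal below these medians is not shown to be above background, and no linear fold is given where a group mean lay there. Control 1 stood apart from the other control tongues for Cxcl9 and Cxcl10, as given below, and results that rest on it are given with and without it. Control 3 and 4NQO 2 had the largest difference between the 3′ and 5′ probe sets of Gapdh (1.67 and 1.07 on the log2 scale, against 0.086 to 0.47 on the other arrays), a sign of less complete transcripts. The same difference for β-actin did not single them out, with 1.12, 0.95 and 0.55 on the 4NQO arrays and 0.75, 0.83 and 1.01 on the control arrays.

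No chemokine passed limma's test at an adjusted p under 0.05, while 23 genes of all those tested (0.126%) were called higher and 1 (0.0055%) lower. The 10 log2 fold changes, 4NQO minus control, were all above 0, as were 47.7% of those of all genes, and their median was 0.71, against -0.014 over all genes. At an unadjusted p under 0.05 from limma, 6 of the 10 were higher (Ccl5, Cxcl10, Cxcl14, Ccl3, Ccl7 and Cxcl9) and 0 lower, where 6.68% of all genes were higher and 3.74% lower. Without 4NQO 3 the count of higher chemokines was 3, and without any other single tongue it was 4 to 8. Over all genes the count of higher ones was 1216 with all tongues and 833 to 1469 without 1 tongue. Significance analysis of microarrays (SAM), the method of the study, was run anew here with 1 probe set per gene. It called 1 of the 10, Ccl5, and 59 of all genes, 59 higher and 0 lower. These calls are not the study's own. The 4NQO tongues all lay above the control tongues for 3 chemokines, Ccl5, Cxcl14 and Ccl3, and below them for 0, where 9.59% of all genes lay higher in this way and 7.18% lower. For a single gene, 3 against 3 tongues cannot give a two-sided exact permutation p below 0.1.

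**Figure D1:**
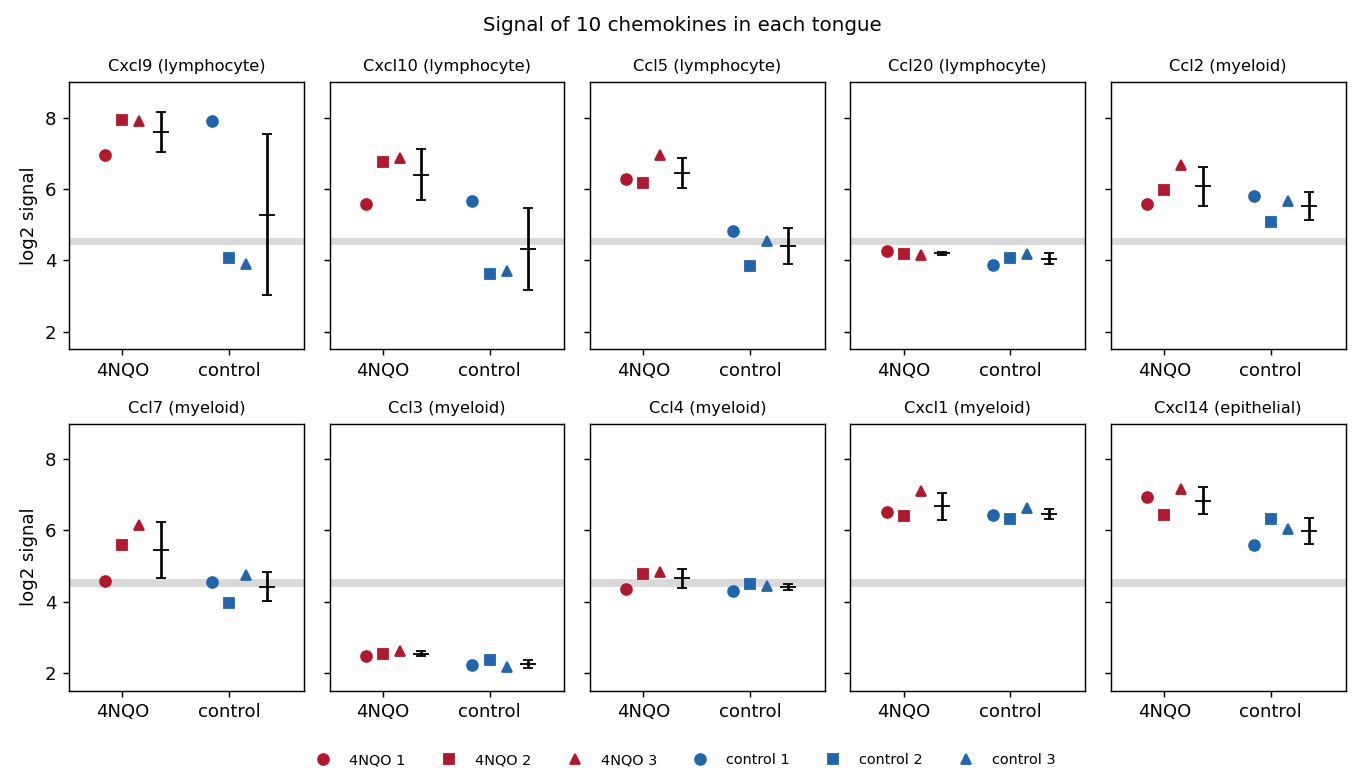
Log2 signal (vertical axis) of each of the 10 chemokines in the 3 4NQO tongues (left in each panel) and the 3 control tongues (right), with 1 symbol per tongue, the group mean ± SD in black and a grey band for the array medians, 4.45 to 4.60. Ccl5 separates the groups with a gap of 1.33, control 1 lies among the 4NQO tongues for Cxcl9, and Ccl3 and Ccl20 lie below the band in every tongue.

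Ccl5, which attracts T cells and monocytes, gave the clearest difference of the 10. Its log2 signal was 6.29, 6.16 and 6.95 in the 4NQO tongues, against 4.83, 3.85 and 4.55 in the control tongues. The lowest 4NQO tongue exceeded the highest control tongue by 1.33, and within each group the tongues differed by less than 1. The log2 fold change was 2.05 (standard error, SE, 0.30, 95% interval 1.35 to 2.76, limma adjusted p = 0.0615), which ranked Ccl5 number 44 of 18193 genes by p. The limma adjusted p was 0.0449 with the array medians set equal. It reached 0.210 without control 3 and 4NQO 2 together, the largest of the alternatives that refitted limma. The means were 6.47 ± 0.42 in the 4NQO tongues and 4.41 ± 0.51 in the control tongues (SD, n = 3 each), and the second lay below the array medians.

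Cxcl9 and Cxcl10 are interferon-inducible ligands of CXCR3, the receptor of activated T cells and NK cells, and their genes lie close to each other on chromosome 5. Cxcl9 had a log2 signal of 6.96, 7.95 and 7.91 in the 4NQO tongues, against 7.90, 4.06 and 3.90 in control 1, control 2 and control 3. Among the 4NQO tongues 4NQO 1 was the lowest, control 1 lay above it and close to the other 2, and the other 2 control tongues lay below the array medians. The log2 fold change was 2.32 with a wide 95% interval of 0.082 to 4.56 (SE 0.97, limma adjusted p = 0.464). Without control 1 it was 3.63 (SE 0.33) and passed the test, with an adjusted p of 0.0321 from limma, and without any other single tongue the adjusted p was 0.517 or more. The control spread of Cxcl9, an SD of 2.27, was larger than that of 99.8% of all genes.

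Cxcl10 had a log2 signal of 5.58, 6.77 and 6.87 in the 4NQO tongues, against 5.66, 3.61 and 3.69 in the control tongues. As for Cxcl9, control 1 lay above 4NQO 1 and below the other 2 4NQO tongues, and the other control tongues lay far below every 4NQO tongue. The log2 fold change was 2.08 (SE 0.58, 95% interval 0.75 to 3.42, limma unadjusted p = 0.00696, adjusted p = 0.263). Without control 1 it was 2.75 (adjusted p = 0.133). Over the 6 tongues, the root mean square difference between the mean-centred log2 signals of Cxcl9 and Cxcl10 was 0.66, the smallest of Cxcl9 with any other of the 10, and that of Cxcl9 and Ccl5 was 1.18. Cxcl11, also a CXCR3 ligand gene, did not share the pattern in its measured signal, with 5.62, 5.39 and 5.84 in the 4NQO tongues and 6.08, 5.33 and 5.56 in the control tongues (log2 fold change -0.043, limma adjusted p = 0.962).

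The 250 bases before the transcription start of Cxcl10 and Cxcl9 are shown because control 1 stood apart from the other control tongues for both genes, which have 1 protein-coding gene, Art3, between them. Capitals mark matches to the consensus of NF-κB, to the core of the interferon-stimulated response element (GAAA, any 2 bases, GAAA) and to the core of the gamma-activated site (TTCNNNGAA), each searched on both strands. Sequences are from RefSeq, build GRCm38.p6, on the minus strand of chromosome 5 (chr5:92348890-92349139 for Cxcl10 and chr5:92328080-92328329 for Cxcl9), and read 5′ to 3′ along the gene.
Cxcl10: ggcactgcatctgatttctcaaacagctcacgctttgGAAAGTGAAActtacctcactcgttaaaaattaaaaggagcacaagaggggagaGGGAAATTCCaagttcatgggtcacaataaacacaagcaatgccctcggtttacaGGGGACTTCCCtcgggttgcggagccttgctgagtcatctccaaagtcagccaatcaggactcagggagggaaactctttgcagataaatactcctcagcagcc
Cxcl9: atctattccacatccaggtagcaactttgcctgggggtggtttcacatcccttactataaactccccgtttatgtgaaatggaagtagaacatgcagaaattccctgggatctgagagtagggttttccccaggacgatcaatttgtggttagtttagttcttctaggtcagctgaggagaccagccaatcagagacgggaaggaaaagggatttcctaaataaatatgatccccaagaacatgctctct
In Cxcl10 the interferon-stimulated response element core, GAAAGTGAAA, began 213 bases before the start, and NF-κB matches began 159, 104 and 103 bases before it, the last 2 overlapping. In Cxcl9 none of the 3 motifs, as spelled, was in this window. Among 32851 promoter windows of this length, 2.98% held the interferon-stimulated response element core, 7.25% the NF-κB consensus and 7.02% the gamma-activated site core. A promoter was listed for 6 of the 10 chemokines, and 3 of them (Cxcl10, Ccl20 and Cxcl1) held the NF-κB consensus, 2 (Cxcl10 and Cxcl14) the interferon-stimulated response element core and 1 (Cxcl14) the gamma-activated site core. The matches are a description of letters and not evidence of binding.

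The genes whose pattern over the 6 tongues was nearest to that of Cxcl10 were Oasl2, Ifit1 and Usp18, with root mean square differences of 0.22, 0.29 and 0.36 between mean-centred log2 signals. All 3 are interferon-stimulated genes. Nearest to Cxcl9 were Plac8, expressed in several leukocyte types, and the oligoadenylate synthetase genes Oas1a and Oas3, with differences of 0.54, 0.57 and 0.59. Oas1a had a log2 signal of 9.20, 9.34 and 9.32 in the 4NQO tongues, against 8.71, 6.15 and 6.34 in the control tongues, so that control 1 again lay apart from controls 2 and 3. Nearest to Ccl5 were Rnase2b, an eosinophil-associated ribonuclease, Mcm5, a replicative helicase subunit, and Spink12, a Kazal-type protease inhibitor, with differences of 0.34, 0.40 and 0.40. These 9 genes were picked as the most similar of 18193 over 6 tongues, and the likeness carries no test.

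**Figure D2:**
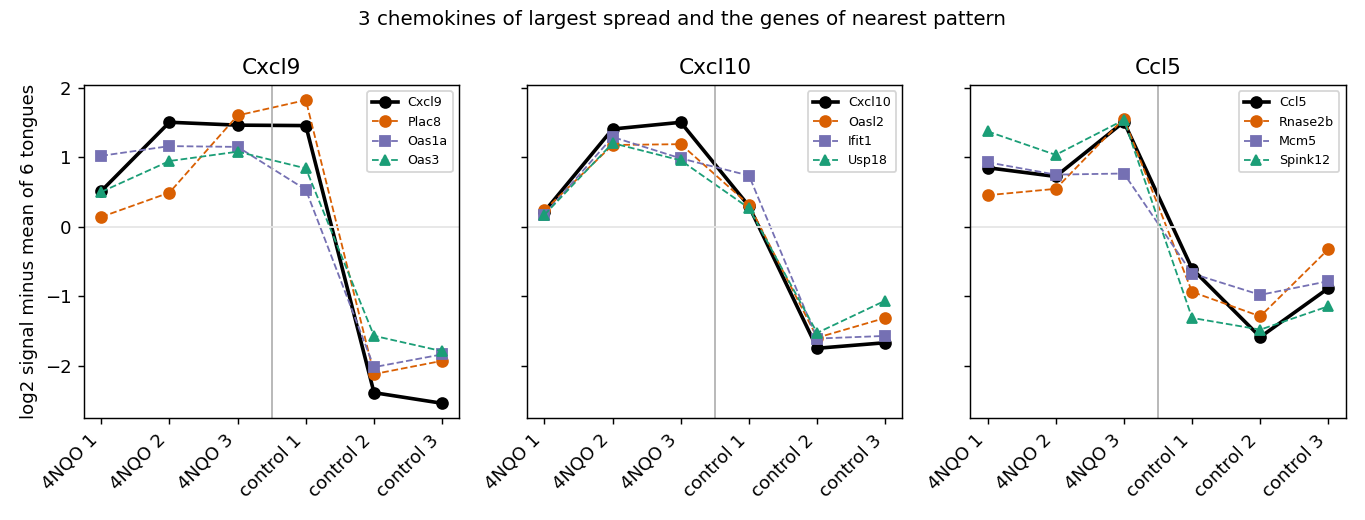
Log2 signal minus the mean of the 6 tongues (vertical axis) for Cxcl9, Cxcl10 and Ccl5 (black) and the 3 genes of nearest pattern for each (colors), with 4NQO tongues left of the grey line and control tongues right of it; lines only join the points of a gene. In the Cxcl9 and Cxcl10 panels control 1 lies nearer the 4NQO tongues than controls 2 and 3 for every gene, below all 4NQO tongues for Oas1a (8.71) and above them for Plac8 (8.54), and in the Ccl5 panel it lies with the other control tongues.

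Ccl20, a ligand of CCR6 that epithelium makes and that attracts Th17 cells, B cells and precursors of dendritic cells, showed no difference larger than the spread of the tongues. Its log2 signal was 4.25, 4.19 and 4.15 in the 4NQO tongues, against 3.88, 4.06 and 4.19 in the control tongues, and all 6 lay below the array medians. The log2 fold change was 0.15 (95% interval -0.17 to 0.47, limma adjusted p = 0.734). A change within that interval is not excluded, and none was detectable at this signal.

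Among the chemokines that attract monocytes, Ccl7 differed more between the groups than Ccl2, which has the same receptor, CCR2, and is the next gene on chromosome 11. Ccl7 had a log2 signal of 4.59, 5.58 and 6.16 in the 4NQO tongues, against 4.56, 3.96 and 4.76 in the control tongues. The groups overlapped through 4NQO 1, and the log2 fold change was 1.02 (SE 0.39, 95% interval 0.12 to 1.93, limma adjusted p = 0.433). Ccl2 had 5.60, 5.97 and 6.67 in the 4NQO tongues, against 5.81, 5.08 and 5.68 in the control tongues. Its groups overlapped as well, with a log2 fold change of 0.56 (95% interval -0.15 to 1.27, limma adjusted p = 0.573). For both genes 4NQO 3 was the highest tongue and 4NQO 1 the lowest of its group, and without 4NQO 3 the log2 fold changes were 0.66 for Ccl7 and 0.26 for Ccl2. The difference between the 2 genes was not tested.

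Ccl3 and Ccl4, inflammatory proteins made by macrophages and lymphocytes, of which Ccl3 binds CCR1, were at or below the array medians in most tongues. Ccl3 had 2.48, 2.52 and 2.61 in the 4NQO tongues, against 2.21, 2.37 and 2.15 in the control tongues. The groups did not overlap, but the gap was 0.12 and every value lay far below the medians, so that the log2 fold change of 0.30 (SE 0.099, limma adjusted p = 0.357) is not shown to be signal of Ccl3. Ccl4 had 4.36, 4.78 and 4.82 in the 4NQO tongues, against 4.31, 4.48 and 4.43 in the control tongues, with a log2 fold change of 0.25 (95% interval -0.15 to 0.64, limma adjusted p = 0.653).

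Cxcl1, a ligand of CXCR2 that attracts neutrophils, was measured by 3 probe sets that gave different answers. The brightest by its mean over the 6 arrays, 1441855_x_at at 6.57, gave 6.52, 6.40 and 7.11 in the 4NQO tongues, against 6.42, 6.33 and 6.63 in the control tongues. Its log2 fold change was 0.22 (95% interval -0.28 to 0.71, limma adjusted p = 0.747), and 0.0039 without 4NQO 3. The next, 1457644_s_at at 6.53, gave 6.40, 6.59 and 8.56 in the 4NQO tongues, against 5.78, 5.98 and 5.84 in the control tongues, and its groups did not overlap. Its log2 fold change was 1.32 (SE 0.51, limma p adjusted over all probe sets = 0.432). The dimmest, 1419209_at, gave 3.74, 3.64 and 6.12 in the 4NQO tongues, against 3.45, 3.64 and 3.19 in the control tongues, a log2 fold change of 1.07 (limma p adjusted over all probe sets = 0.563). In all 3 probe sets 4NQO 3 was the highest of the 6 tongues. The suffix x marks probe sets whose probes can also bind other transcripts, and s those whose probes are shared by several transcripts.

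**Figure D3:**
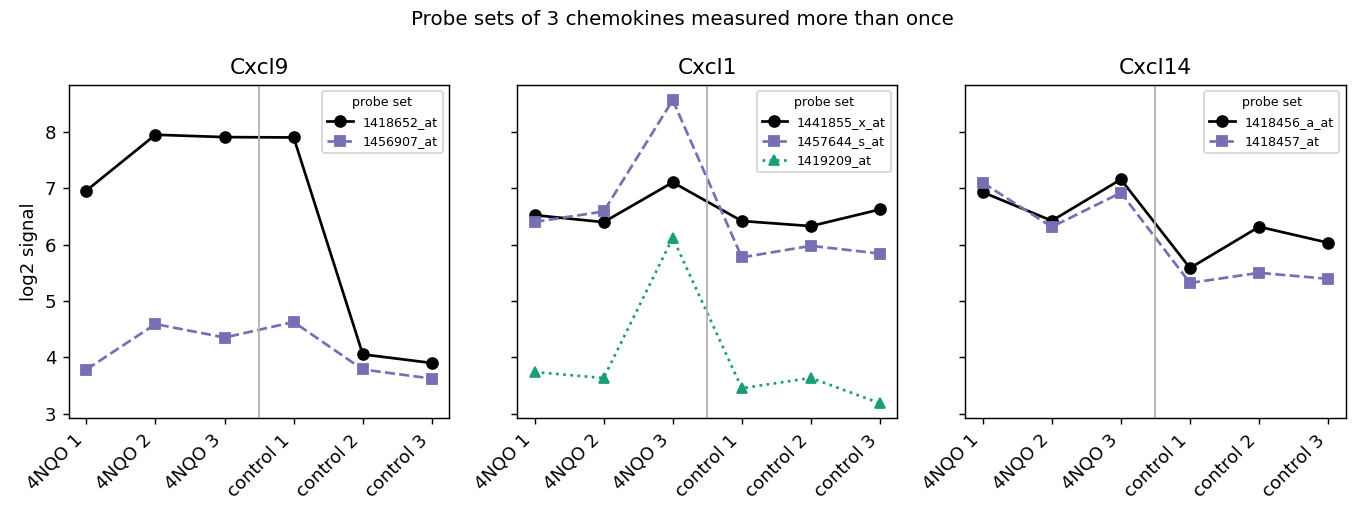
Log2 signal (vertical axis) of every probe set of Cxcl9, Cxcl1 and Cxcl14 in each tongue, with 4NQO tongues left of the grey line and control tongues right of it; lines only join the points of a probe set. For Cxcl1 the probe set 1457644_s_at reaches 8.56 in 4NQO 3, where the brighter 1441855_x_at stays at 7.11, and for Cxcl14 every 4NQO tongue lies above every control tongue in both probe sets, by as little as 0.11 in the brighter one.

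Among genes listed beside them, 4NQO 3 was also the highest tongue for Cxcl2, another CXCR2 ligand and the next gene to Cxcl1 (2.41, 2.25 and 4.00 in the 4NQO tongues, against 2.40, 1.89 and 2.04 in the control tongues, all below the array medians). The same tongue had the highest summed signal of 6 measured neutrophil markers, 5484, with 461 and 1456 in the other 4NQO tongues and 200.5 to 450 in the control tongues. Of these 6, S100a8 and S100a9, which stressed keratinocytes also make, were higher at an unadjusted p under 0.05 from limma and 0 were lower. The sum rested on these 2 genes: without them, a check chosen after seeing the data, it was 62.0, 60.2 and 63.7 in the 4NQO tongues and 61.4, 61.8 and 63.1 in the control tongues. Minor salivary gland markers varied widely in both groups, with a summed signal of 107 to 11431 in the 4NQO tongues, highest in 4NQO 3, and of 249 to 7239 in the control tongues. The part of these markers in the Cxcl1 signal was not tested.
The 250 bases before the start of Cxcl1 are shown for the NF-κB match, in capitals as above (RefSeq, build GRCm38.p6, plus strand, chr5:90890995-90891244, read 5′ to 3′).
Cxcl1: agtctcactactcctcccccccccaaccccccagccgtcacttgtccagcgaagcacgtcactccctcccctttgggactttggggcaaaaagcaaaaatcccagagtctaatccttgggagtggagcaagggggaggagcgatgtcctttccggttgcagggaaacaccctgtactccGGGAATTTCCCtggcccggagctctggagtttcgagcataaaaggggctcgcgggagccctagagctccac
The capitals hold 2 overlapping matches on opposite strands, which began 71 and 70 bases before the start, and no match to the other 2 motifs was in this window.

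Cxcl14, which resting squamous epithelium makes and which attracts monocytes and precursors of dendritic cells, was higher in every 4NQO tongue. The brighter probe set gave a log2 signal of 6.93, 6.42 and 7.16 in the 4NQO tongues, against 5.59, 6.32 and 6.03 in the control tongues. Its log2 fold change was 0.86, or 1.81-fold (SE 0.25, 95% interval 0.27 to 1.45, limma adjusted p = 0.293). The second probe set gave 7.10, 6.32 and 6.92 in the 4NQO tongues, against 5.32, 5.50 and 5.39 in the control tongues, and separated the groups more widely, 2.59-fold (log2 fold change 1.37, SE 0.22, limma p adjusted over all probe sets = 0.0940). Cxcl14 stayed at an unadjusted p under 0.05 in all 14 alternatives that refitted it, and never passed the adjusted threshold. Its adjusted p over these alternatives was 0.0940 to 0.562. Of 5 measured keratinocyte markers, Krt14 was higher at an unadjusted p under 0.05 from limma, as were 6.68% of all genes. The summed signal of the 5 markers was 38385 to 44250 in the 4NQO tongues and 38493 to 39978 in the control tongues. Their part in the Cxcl14 signal was not tested.

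The second probe set of Cxcl9, 1456907_at, was dim, with 3.79, 4.59 and 4.35 in the 4NQO tongues, against 4.63, 3.79 and 3.63 in the control tongues. Control 1 was again the highest control tongue and here the highest of all 6. Its log2 fold change was 0.23 (limma p adjusted over all probe sets = 0.814), and the mean of both probe sets gave 1.27.

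**Figure D4:**
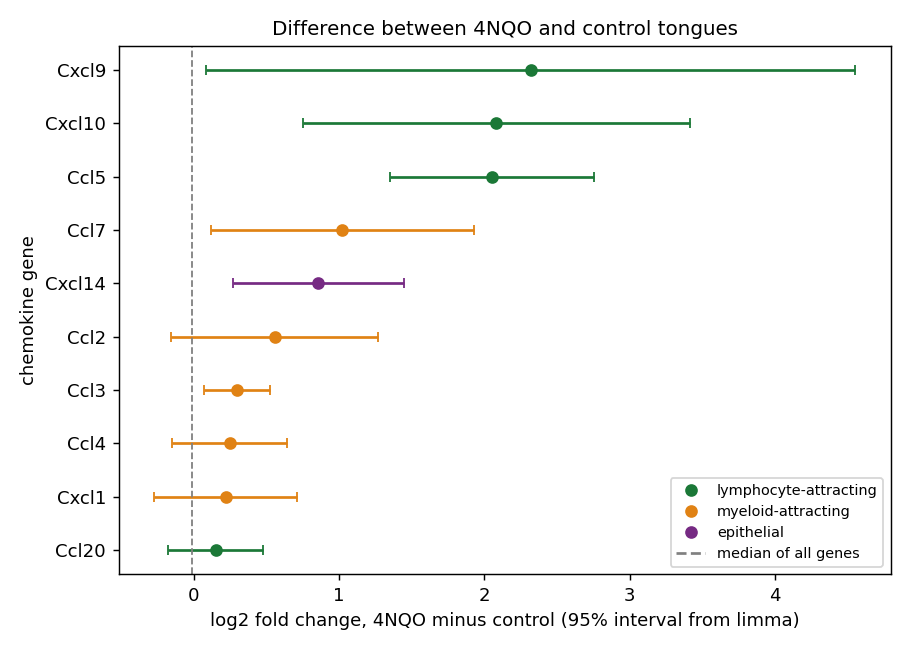
Log2 fold change, 4NQO minus control, of the 10 chemokines (points, horizontal axis) with 95% intervals from limma, colored by class, and the median of all genes as a dashed line at -0.014. The 3 largest belong to the lymphocyte-attracting Cxcl9 (2.32), Cxcl10 (2.08) and Ccl5 (2.05), and the smallest to Ccl20 (0.15), also lymphocyte-attracting.

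Set side by side, the 4 lymphocyte-attracting chemokines had log2 fold changes of 0.15 to 2.32, with a median of 2.07. The 5 myeloid-attracting ones had 0.22 to 1.02, with a median of 0.30. The second median was the value of Ccl3, which is not shown to be signal of Ccl3. Ccl4, of the same group, lay near the array medians, and Ccl20, of the first group, below them. The means that follow include these dim genes. Per tongue, the mean of the lymphocyte-attracting group, relative to the control mean on the log2 scale, was 1.25, 1.75 and 1.95 in the 4NQO tongues, against 1.05, -0.62 and -0.43 in the control tongues. That of the myeloid-attracting group was 0.10, 0.44 and 0.86 in the 4NQO tongues, against 0.049, -0.17 and 0.12 in the control tongues. The first minus the second was 1.15, 1.31 and 1.09 in the 4NQO tongues, against 1.00, -0.45 and -0.55 in the control tongues. In this difference the 4NQO tongues lay close together (SD 0.12) and the control tongues far apart (SD 0.87), with control 1 just below the 4NQO tongues. The group difference was 1.18. Without control 1 it was 1.69, without control 2 it was 0.96 and without control 3 it was 0.91. Without 1 4NQO tongue it was 1.12 to 1.23, and without control 3 and 4NQO 2 together 0.84. Taken with the second probe sets of Cxcl9 and Cxcl1 it was 0.44. No p is given for these means.

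**Figure D5:**
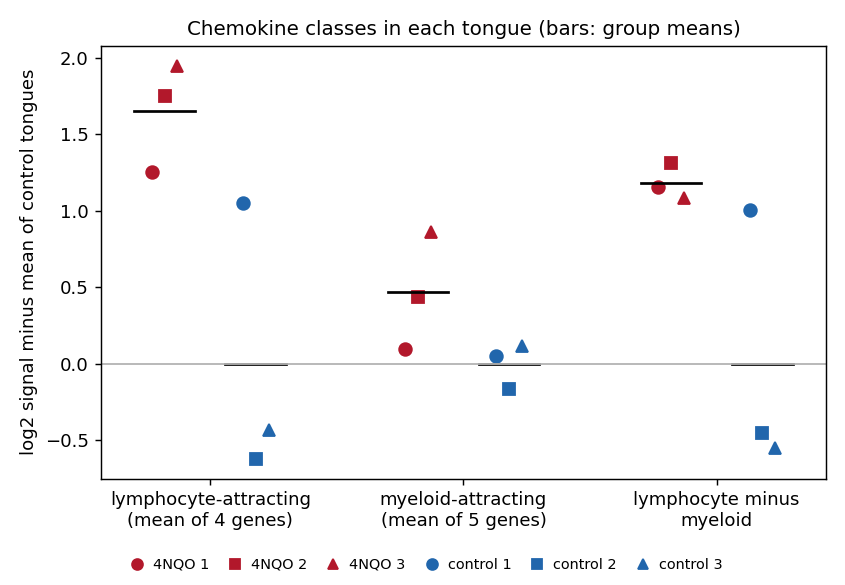
Mean difference in log2 signal from the control mean (vertical axis) over the lymphocyte-attracting and the myeloid-attracting chemokines, and the first minus the second, with 1 symbol per tongue, 4NQO left of control and bars for group means. Control 1 lies near the 4NQO tongues in the lymphocyte-attracting mean, at 1.05, and among the control tongues in the myeloid-attracting mean, at 0.049.

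The treated tongues differed among themselves in an order that many of the 10 shared. 4NQO 3 was the highest 4NQO tongue for 8 of the 10 and 4NQO 1 the lowest for 6, while over all genes 4NQO 3 was the highest in 34.6% and 4NQO 1 the lowest in 32.4%. The exceptions to 4NQO 3 were Cxcl9, where 4NQO 2 was higher by less than 0.05, and Ccl20, where 4NQO 1 was. The widest ranges among the 4NQO tongues were those of Ccl7 (1.57), Cxcl10 (1.28) and Ccl2 (1.07), and the narrowest those of Ccl20 (0.10) and Ccl3 (0.13), both dim. The SD of Ccl7 among the 4NQO tongues, 0.79, exceeded that of 98.5% of all genes, and that of Cxcl10, 0.72, exceeded that of 97.9%. The median SD of the 10 was 0.40 in the 4NQO tongues and 0.38 in the control tongues, against 0.18 in both groups over all genes. Without 4NQO 1 the median SD in the 4NQO tongues was 0.24. The SD was larger in the 4NQO tongues for 5 of the 10, and for 49.9% of all genes.

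Of 5 measured receptors of these chemokines, 0 passed limma's adjusted test and 1, Cxcr3, was higher at an unadjusted p under 0.05. Over all genes, 6.68% were higher and 3.74% lower at that threshold. Cxcr3, the receptor of Cxcl9 and Cxcl10, had 3.87, 4.21 and 4.49 in the 4NQO tongues, against 3.36, 3.48 and 3.57 in the control tongues (log2 fold change 0.72, limma adjusted p = 0.216), all below the array medians. Control 1 was high for both ligands and the lowest of the 6 tongues for Cxcr3. At this level that order is not shown to be signal of Cxcr3. Ccr2, the receptor of Ccl2 and Ccl7, had 4.87, 5.73 and 5.09 in the 4NQO tongues, against 4.75, 4.77 and 4.85 in the control tongues (log2 fold change 0.44, limma adjusted p = 0.549). Ccr1, Cxcr2 and Ccr6, the receptor of Ccl20, had log2 fold changes of 0.22, 0.20 and -0.078, and their groups overlapped. Cxcr2 and Ccr6 lay below the array medians in every tongue, so that a change in them is neither shown nor excluded. Of 16 other measured chemokine receptors, 3 were higher at an unadjusted p under 0.05 and 0 lower: Ccr7 (0.87), which guides T cells and dendritic cells to lymph nodes, Cx3cr1 (0.61), a receptor of monocytes and macrophages, and Cxcr6 (0.81), found on effector T cells and NK T cells. Ccr7 lay below the array medians in all 6 tongues, Cxcr6 in every tongue but 4NQO 2, and Cx3cr1 in the control tongues.

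Of 25 other measured chemokines, 0 passed the adjusted test, and their median log2 fold change was 0.089 (-0.20 without 4NQO 3). Against 6.68% higher and 3.74% lower over all genes, 0 were lower at an unadjusted p under 0.05 and 5 were higher. They were Ccl22, which dendritic cells and macrophages make and which attracts T cells through CCR4 (log2 fold change 1.06, adjusted p = 0.148), Cxcl16, the ligand of CXCR6 (1.01, adjusted p = 0.202), Ccl12, a mouse monocyte attractant (1.66, adjusted p = 0.307), Cxcl15, which was dim (0.44), and Ccl8 (2.20, adjusted p = 0.429), all by limma. Cxcl16 had a log2 signal of 6.94, 7.83 and 7.77 in the 4NQO tongues, against 6.58, 6.45 and 6.47 in the control tongues, so that the control tongues were alike and control 1 did not stand apart. Ccl12, which lies in the gene cluster of Ccl2 and Ccl7, had 3.93, 5.10 and 6.30 in the 4NQO tongues, against 3.56, 3.26 and 3.52 in the control tongues, the order of the treated tongues seen for Ccl7. Ccl8, of the same cluster, had 5.71, 8.32 and 8.48 in the 4NQO tongues, against 5.48, 3.94 and 6.49 in the control tongues.

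Cytokines that induce chemokines were compared next. Of 12 measured, 5 were higher at an unadjusted p under 0.05 and 0 lower, against 6.68% and 3.74% of all genes. The adjusted test called 0 of the 12, and their median log2 fold change was 0.35. Il1b, an inducer of Cxcl1 and Ccl2 in many cell types, had a log2 signal of 5.48, 5.87 and 7.46 in the 4NQO tongues, against 4.72, 4.56 and 4.84 in the control tongues (log2 fold change 1.56, limma adjusted p = 0.286), again highest in 4NQO 3. Il1f9, the IL-36γ gene of epithelium, had a log2 fold change of 1.58, Ltb, which encodes lymphotoxin β, 0.83, and Il17a, dim in all tongues, 0.45. Ifng, the interferon γ gene, had 2.11, 2.01 and 2.25 in the 4NQO tongues, against 2.12, 1.91 and 2.22 in the control tongues, values far below the array medians that do not show whether it was expressed. Of 12 measured genes of the NF-κB pathway and its feedback, Nfkbiz (1.01, limma adjusted p = 0.139) and Tnfaip3 (0.49) were higher at an unadjusted p under 0.05, 0 were lower, and the median was 0.094 (-0.013 without 4NQO 3, 0.25 without 4NQO 2, 0.19 without control 2 and 0.18 without control 3).

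Of 13 measured genes of the interferon γ axis, 8 were higher at an unadjusted p under 0.05 and 0 lower, against 6.68% and 3.74% of all genes. The adjusted test called 0 of the 13. Their median log2 fold change was 0.75 (0.41 with the second-brightest probe set of each gene that has one). The smallest p belonged to the antigen processing genes Psmb8 (1.20, adjusted p = 0.115), Tap1 (1.52, adjusted p = 0.149) and Psmb9 (1.43, adjusted p = 0.181) and to the GTPase gene Irgm1 (1.03, adjusted p = 0.322), all from limma. Psmb9 had 8.21, 8.70 and 8.70 in the 4NQO tongues, against 7.89, 6.80 and 6.65 in the control tongues, with control 1 between the 4NQO and the other control tongues. The median shift of the 13 genes from the control mean was 0.48, 0.95 and 1.20 in the 4NQO tongues, against 0.48, -0.18 and -0.25 in the control tongues, so that control 1 was level with 4NQO 1. The part of interferon γ, or of any other interferon, in these values was not tested.

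Markers of the leukocytes that make or follow these chemokines are given beside them. At an unadjusted p under 0.05 from limma, 6.68% of all genes were higher and 3.74% lower. A single gene called in a short list is thus not read as a change of its cell type. Of 9 measured T and NK cell markers, Cd3g (0.94) and Nkg7 (0.87) were higher at an unadjusted p under 0.05 from limma and 0 lower, and their summed signal was 158 to 258 in the 4NQO tongues and 153 to 179 in the control tongues. The T cell marker Cd3e had 4.87, 5.54 and 5.21 in the 4NQO tongues, against 5.18, 5.17 and 4.80 in the control tongues. In control 1 the summed signal of these markers was 179, and in 4NQO 1 it was 158, within the range of the control tongues. Cd3g and Nkg7 lay below the array medians in the control tongues and in 4NQO 1, and Cd8b1 and Ncr1 in every tongue. The sum thus includes signal not shown to be above background. Of 11 measured macrophage and monocyte markers, 1 was higher, Fcgr1 (1.29), which interferon γ induces, and the summed signal was 3592 to 7866 in the 4NQO tongues and 3499 to 6915 in the control tongues. Of 6 dendritic and Langerhans cell markers, 1 was higher, Itgax (1.15, limma adjusted p = 0.0703), and the summed signal was 585 to 663 in the 4NQO tongues and 395 to 562 in the control tongues. Most of that sum was Epcam, which epithelium also makes, and without it, a check chosen after seeing the data, the groups overlapped, with 183 to 290 in the 4NQO tongues and 149 to 211 in the control tongues. Of 4 B and plasma cell markers, 1 was lower, Cd79a (-0.59), and of 5 mast cell markers and 4 endothelial markers 0 differed at that threshold. Cd79a lay below the array medians in every tongue but control 1, so that its difference is not shown to be signal of Cd79a. Fcgr1 lay below the array medians in the control tongues. Of 5 fibroblast markers, 1 was lower, Col1a2 (-0.50), and of 6 skeletal muscle markers and 5 minor salivary gland markers 0 were. The part of leukocyte numbers in the chemokine signals was not tested.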

How the data were processed

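Total RNA of 3 4NQO-treated and 3 control tongues was measured on Affymetrix mouse arrays, 1 per mouse. Normalization was done by the authors in R with Bioconductor packages, by a method not given in the sources used here, and 1 log2 value was deposited for each probe set and array. Probe sets were named from the platform annotation, and those annotated to several genes or none were left out. For each of 18193 genes the brightest probe set by mean over the arrays was tested with limma 3.58.1 in R 4.3.3 (functions lmFit and eBayes, trend on intensity) and Benjamini-Hochberg adjustment over all genes and a threshold of 0.05. No filter on low signals was applied. The test was tested on simulated data with known changes. Members and lists were chosen with earlier results of these data known.

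All 10 members, their measured receptors, up to 4 genes of each other list with the smallest unadjusted p under 0.05, and the 3 genes nearest in pattern to each of the 3 members of largest SD were named. Cxcl11, Ccl8, Cxcl2, Cd3e and Ifng were chosen after their values were seen. The number of arrays limits the precision. Nothing says whether mice shared a cage or litter. Alternatives were quantile normalization, centring, leaving out genes dimmer than the median, other probe sets, no intensity trend, leaving out arrays, a block for the replicate number, SAM and the methods' t-test. A comparison of the classes with some members left out is not reported here.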

Additional observations from a re-analysis of the deposited data

How the results depend on the processing

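All 10 chemokines kept a log2 fold change above 0 in every alternative that refitted limma. Ccl5 passed the adjusted threshold with arrays centred on their medians (2.13, adjusted p = 0.0449 from limma) and Cxcl9 without control 1, and no other member passed in any of them. The 10 gave 0 calls as reported, 1 when arrays were centred, 1 by SAM (Ccl5), 3 by the methods' t-test unadjusted and 0 by it adjusted, and 0 to 1 without 1 tongue. At an unadjusted p under 0.05 from limma, 6 members were higher as reported and 1 when dim genes were left out (only 3 members remained). The count was 2 without control 3 and 4NQO 2 together and 3 to 8 without 1 tongue, with 3 without 4NQO 3. Over all genes it was 1216 as reported, 755 without dim genes, 1198 without control 3 and 4NQO 2 together and 833 to 1469 without 1 tongue. Over all genes, 24 were called as reported, 65 when centred, 13 without dim genes, 4 without control 3 and 4NQO 2 together, 59 by SAM, 2 by the methods' t-test adjusted and 1700 unadjusted, and 0 to 27 without 1 tongue (833 higher at an unadjusted p under 0.05 from limma where it was 0, without control 2). With the replicate number as a block, 2 genes and 0 members were called. In that fit 6 members, and 991 of all genes, were higher at an unadjusted p under 0.05 from limma. Deviations of same-numbered tongues from their group means correlated at 0.29, -0.51 and 0.048, so that the numbers were not taken as pairs. Without 1 tongue the median log2 fold change of other chemokines was -0.20 to 0.29, that of receptors of the members 0.082 to 0.62 (0.62 without 4NQO 1) that of other receptors -0.030 to 0.13 and that of NF-κB genes -0.013 to 0.25. The causes were not tested. Genes near or below the array medians, which include Ccl20, Ccl3 and Ccl4, limit what can be seen.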
